A study of Mus musculus with 8 samples.

Results

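The transcripts described here are those of 33 genes for transcription factors that set liver, gut, pancreas, endoderm, trophoblast and stem cell identity. They were chosen by name, and all 33 were found among the 47434 genes measured. They were read in Hepa 1-6, a line grown from a mouse hepatoma, by sequencing of poly-A RNA. The genotypes were wild type, with 4 libraries, and G9a knockout, also with 4. G9a, which the gene Ehmt2 encodes, methylates lysine 9 of histone H3. Both genotypes share the line, and the labels name no treatment or time. The sources used here do not give how the knockout was made, whether it is a clone, or whether the replicates are separate cultures. The p-values below rest on the spread between these 8 libraries, which may be technical.

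Factors of this kind bind DNA in a sequence-specific way and act in combinations, and each tissue is marked by the set it keeps on. In hepatocytes the HNF4, FOXA, C/EBP, ONECUT and PROX1 proteins together hold a dense cross-regulated network, which nuclear receptors such as FXR, PXR, CAR and PPARalpha tune to bile acids, drugs and fasting. CDX factors define the intestine, PDX1 the pancreas, and OCT4, SOX2 and NANOG the pluripotent cell. EOMES, TFAP2C, KLF5 and GATA3 act in trophoblast, though not only there.

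Library totals lay between 58256100 and 75025236 counts. Ehmt2 itself stood at 117 to 120 CPM (counts scaled to a total of 1000000 per library with TMM factors, the trimmed mean of M values) in the knockout libraries and at 298 to 345 CPM in the wild type, so it was lower in all 4 knockout libraries and not absent. The cell type label was checked against 10 hepatocyte markers, of which 6 (Alb, Ttr, Serpina1a, Fgb, Cyp2e1 and Tat) had 0 counts in all 8 libraries. Those 10 markers summed to 0.807 to 1.49 CPM in the knockout and 0.696 to 1.52 CPM in the wild type. The markers thus did not bear out a hepatocyte state in either genotype, and the identity of the line was not tested further. Pairs of replicates had a chi-square per degree of freedom of 10.94 to 47.09, so none was a copy of another. In bulk RNA fewer cells with a transcript and less transcript per cell cannot be told apart.

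A factor was called on in a genotype when it reached 1 CPM in each of the 4 libraries, off when no library held more than 3 counts, and low otherwise. By that rule 14 of the 33 factors were on in the wild type, 7 were low and 12 were off. The 14 were Sox2, Klf4, Klf5, Eomes, Cdx2, Gata2, Gata3, Gata6, Foxa1, Foxa2, Cebpa, Onecut2, Tbx3 and Nr1h4. Stem cell, trophoblast, gut, endoderm and liver factors were thus found in the RNA of the same line, while the pancreatic factor Pdx1 was off. In the knockout 12 were on, 11 low and 10 off. Cdx2, Foxa1 and Gata3 left the list of factors that were on, and Esrrb joined it. Gata3 missed the mark through 1 library at 0.975 CPM, and without knockout replicate 1 it counted as on.

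Of the 12 factors that were off in the wild type, 10 had 0 counts in all 8 libraries. They were Hnf4a and Hnf4g, Onecut1 and Prox1 of the liver network, Nr5a2 (LRH-1, a receptor of bile acid synthesis), Cdx1, Isx and Pdx1 of gut and pancreas, Sox17 of endoderm and Nanog of pluripotent cells. A count of 0 allows up to 3 counts if each count stands for its own fragment. That limit is 0.039 to 0.0504 CPM per library and covers counting error only. Among genes with a single long transcript 4 was the most common count above 0, so a fragment may be worth several counts. A count of 0 may then allow up to 12 counts, which is 0.156 to 0.202 CPM per library. Zeros of this kind were rare among genes that every cell uses. Among 83 cytosolic ribosomal protein genes only Rpl3l, Rpl39l and Rpl10l were at 0 in some library, among 39 proteasome genes only Psma8, Psmb11 and Psmb9, and among 13 RNA polymerase II subunit genes none. Those 6 are known as tissue-restricted or inducible members of their families. A check on broadly used genes cannot tell whether a weakly transcribed factor at 0 is silent.

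**Figure D1:**
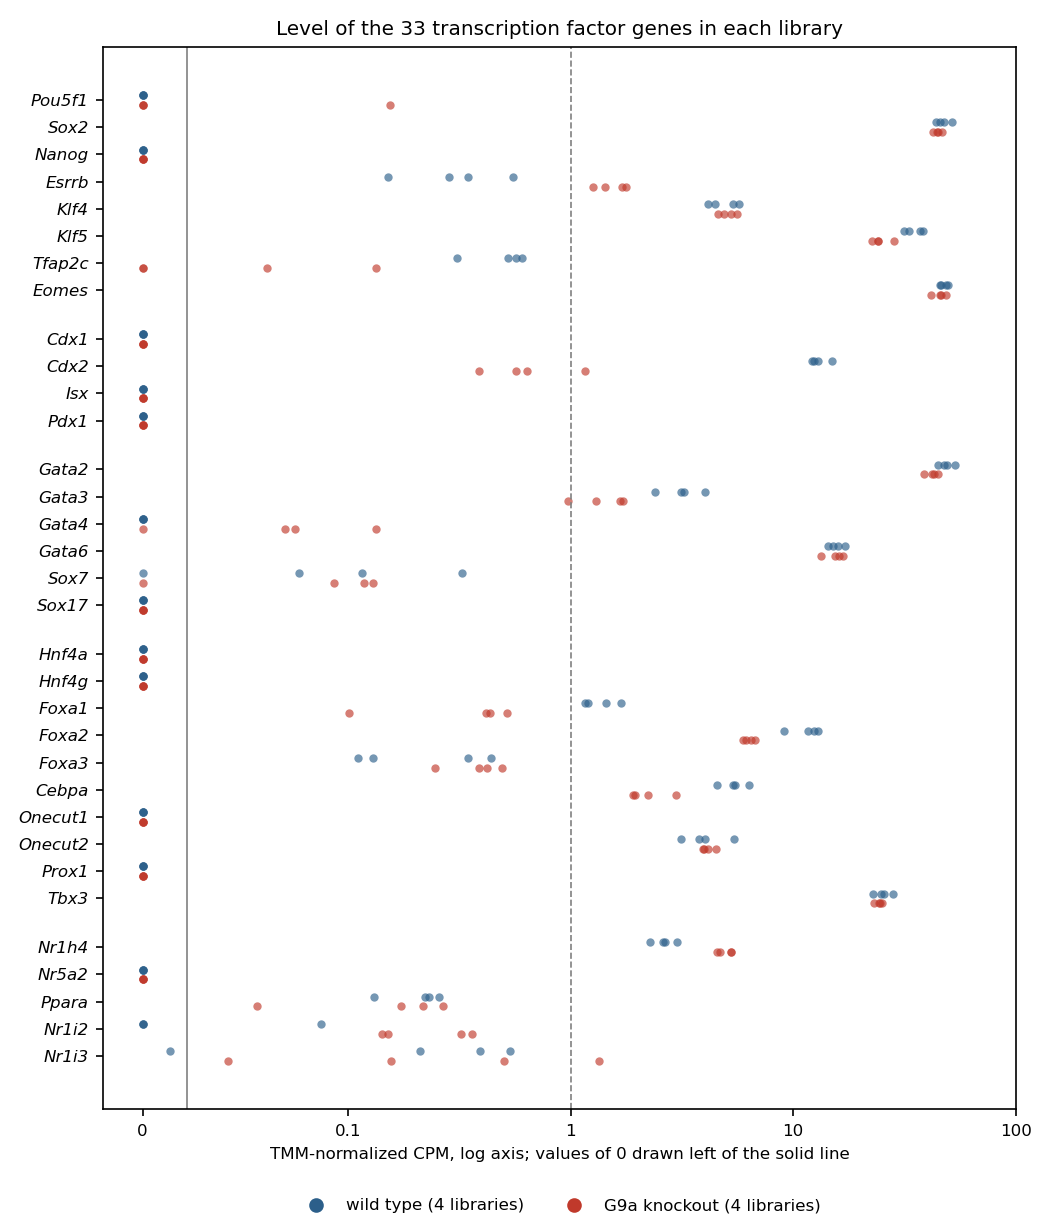
TMM-normalized CPM (log axis) of each of the 33 factors, ordered by role, with 1 point per library, 4 wild-type (blue) and 4 knockout (red). The dashed line marks 1 CPM and values of 0 are drawn left of the solid line. Factors at 0 in all 8 libraries, such as Hnf4a and Nanog, sit at the left edge, and of the factors on in the wild type Cdx2 has the groups that lie farthest apart.

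Levels of different genes were compared as TPM, which divides counts by transcript length before scaling each library to the same total. In the wild type Sox2 was the most abundant of the 33 factors, with 44.3 ± 3.45 TPM (SD, n = 4). Gata2 (26.9 ± 2.27 TPM) and Eomes (26.6 ± 0.974) came next and overlapped each other across libraries, and Klf5 stood at 20.2 ± 1.96 TPM, below both in every library. These 4 were above every liver factor of the set.

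A lower tier held Cdx2 (11.3 ± 1.17 TPM), Foxa2 (10.8 ± 1.67), Tbx3 (10.2 ± 1.04) and Gata6 (9.36 ± 0.706), each overlapping its neighbour in the order. Cebpa (4.01 ± 0.574 TPM) overlapped Klf4 (3.34 ± 0.389), and Nr1h4 (2.55 ± 0.314) overlapped Gata3 (1.93 ± 0.415). Foxa1 was at 0.833 ± 0.153 TPM. Onecut2 was at 0.488 ± 0.111 TPM, and it stands lower in TPM than in CPM because its transcript is long. Tfap2c, Foxa3, Nr1i3, Esrrb, Ppara, Sox7 and Nr1i2 followed, from 0.336 TPM down to 0.0144 TPM, and each overlapped the one above it.

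**Figure D2:**
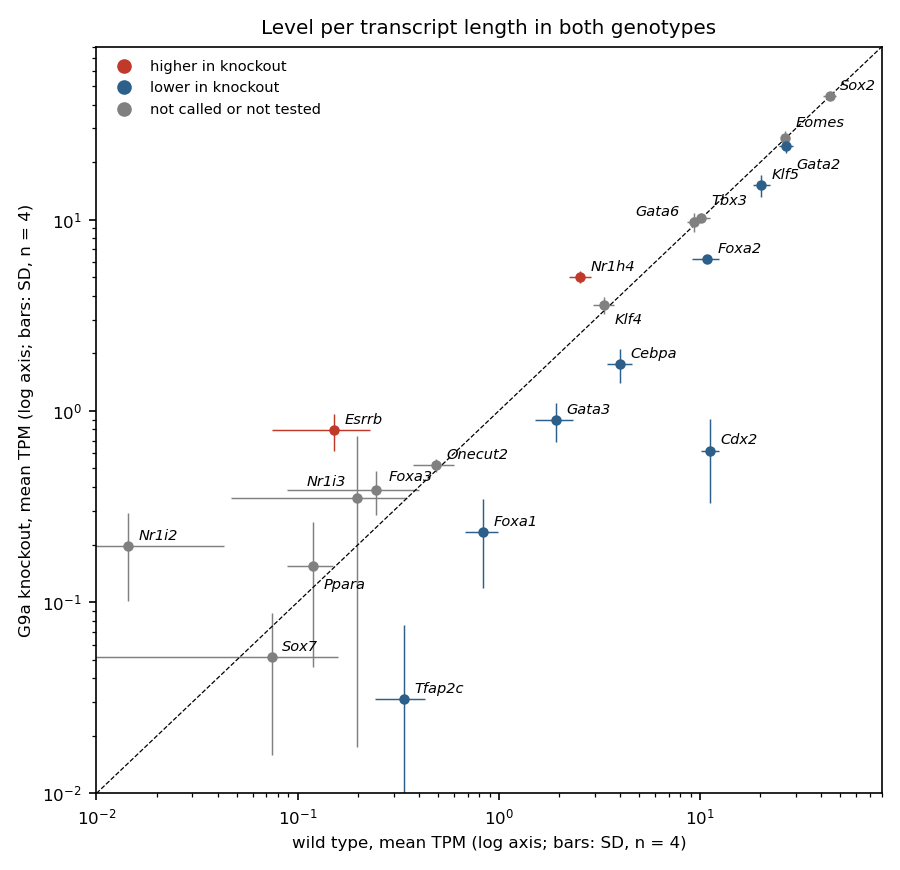
Mean TPM in the wild type (x axis) against the knockout (y axis), both log axes, with SD bars over 4 libraries and the line of equal level dashed. Cdx2 lies far below the line at 11.3 against 0.619 TPM and Esrrb above it at 0.151 against 0.791 TPM, while Sox2, Eomes, Gata6 and Tbx3 lie on it. Factors with a mean of 0 in the wild type are not drawn.

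Knockout and wild type were compared with a negative binomial quasi-likelihood test, and a factor is said to have risen or fallen when its p, adjusted over all 15840 genes tested, was under 0.05. Of the 33 factors 19 held enough counts to be tested. Esrrb and Nr1h4 rose, 8 fell (Cdx2, Tfap2c, Foxa1, Cebpa, Gata3, Foxa2, Klf5 and Gata2) and 9 did not pass the threshold. Among all genes tested 47.2% passed, 23.6% as higher and 23.6% as lower, so a share of 10 in 19 lies near that of the whole transcriptome. No test of the set as a whole was made. With library sizes alone in place of TMM the calls over all genes split into 4543 higher and 2742 lower, against 3742 and 3734, and 7 of the factors fell. The median log2 fold change of the 19 was -0.08, beside 0.00369 over all genes tested. The 4 libraries of each group did not overlap for 3 factors that were higher, Esrrb, Nr1h4 and the untested Nr1i2, and for the 8 that fell, beside 22.5% and 21.4% of all genes tested.

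**Figure D3:**
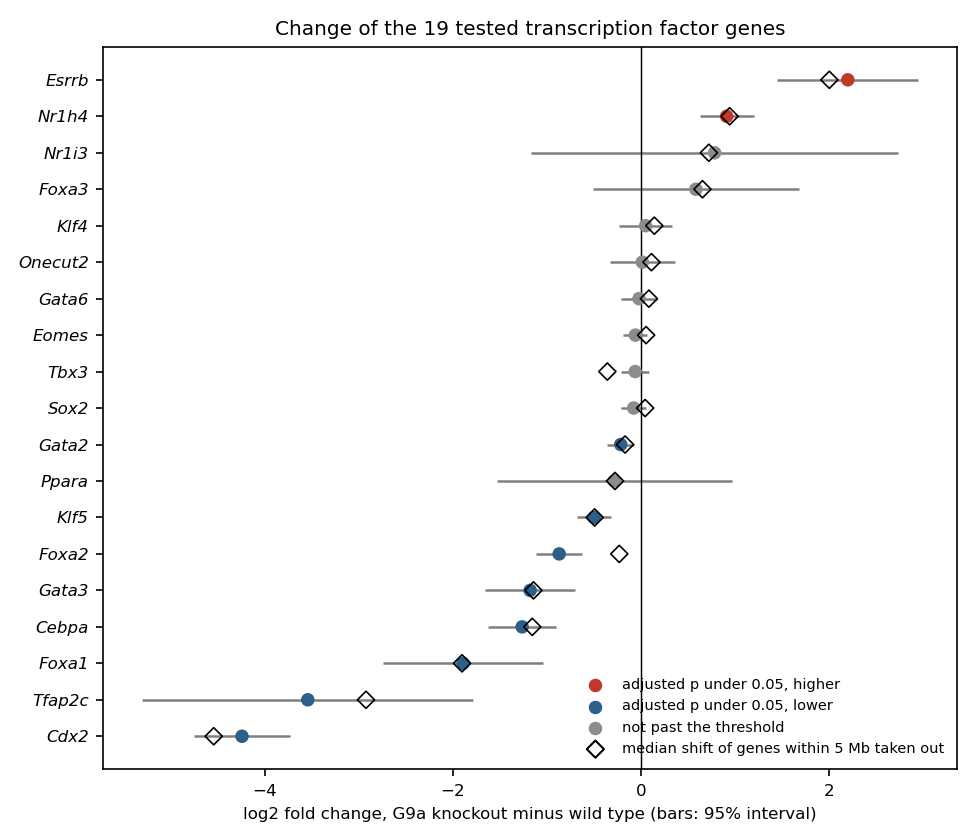
Log2 fold change (knockout minus wild type, x axis) of the 19 tested factors, with 95% intervals as bars and colour for the call. Open diamonds give the value after the median change of the genes within 5 Mb is taken out. The diamond of Foxa2 moves from -0.87 to -0.23 and that of Tbx3 from -0.06 to -0.36, while Cdx2, Esrrb, Cebpa and Nr1h4 stay far from 0.

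Start sites were compared through the RefSeq promoter windows of GRCm38.p6, of which the 250 bases before the start were used. A window was found for 23 of the 33 factors. Where a factor had several, the one whose start lies nearest to that of its transcript with most counts was used, or to its lowest-numbered transcript where all were at 0. The 5 printed here are those of the factor that fell most, a liver factor that fell, the factor that rose most, the missing liver factor Hnf4a and the most abundant factor. Each runs 5′ to 3′ along the strand of its gene, with every CpG dinucleotide, the site of DNA methylation, in capitals.
Cdx2: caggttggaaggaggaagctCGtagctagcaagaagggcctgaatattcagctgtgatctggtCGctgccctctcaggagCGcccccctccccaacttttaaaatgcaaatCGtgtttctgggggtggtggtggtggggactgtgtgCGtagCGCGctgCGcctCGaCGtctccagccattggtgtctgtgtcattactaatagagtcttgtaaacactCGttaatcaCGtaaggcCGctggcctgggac
Cebpa: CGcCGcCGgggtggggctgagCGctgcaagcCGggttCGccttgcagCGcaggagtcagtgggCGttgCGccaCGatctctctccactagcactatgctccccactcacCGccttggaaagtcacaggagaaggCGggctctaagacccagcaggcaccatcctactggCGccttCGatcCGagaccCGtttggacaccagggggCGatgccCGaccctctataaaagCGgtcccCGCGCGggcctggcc
Esrrb: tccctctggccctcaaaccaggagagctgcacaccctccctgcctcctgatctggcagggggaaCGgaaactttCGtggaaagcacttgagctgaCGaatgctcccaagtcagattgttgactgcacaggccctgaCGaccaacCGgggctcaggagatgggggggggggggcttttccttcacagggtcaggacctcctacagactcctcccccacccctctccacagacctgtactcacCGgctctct
Hnf4a: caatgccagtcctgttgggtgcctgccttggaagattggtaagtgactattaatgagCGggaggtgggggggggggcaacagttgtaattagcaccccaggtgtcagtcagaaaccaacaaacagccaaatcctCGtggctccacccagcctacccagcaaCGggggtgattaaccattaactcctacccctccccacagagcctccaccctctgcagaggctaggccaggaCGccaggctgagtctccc
Sox2: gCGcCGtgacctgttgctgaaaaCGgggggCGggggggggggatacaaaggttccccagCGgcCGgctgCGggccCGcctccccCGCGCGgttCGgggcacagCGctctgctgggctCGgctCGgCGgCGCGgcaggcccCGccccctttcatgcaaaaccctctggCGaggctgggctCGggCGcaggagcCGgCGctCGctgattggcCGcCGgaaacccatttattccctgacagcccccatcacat

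The Cdx2 window lies at chr5:147307250-147307499 (minus strand), that of Cebpa at chr7:35119043-35119292, that of Esrrb at chr12:86360867-86361116, that of Hnf4a at chr2:163546905-163547154 and that of Sox2 at chr3:34649745-34649994 (all plus strand). The RefSeq start of Sox2 lies 410 bases before that of the counted transcript. The windows hold 13 CpG in Cdx2, 22 in Cebpa, 6 in Esrrb, 4 in Hnf4a and 27 in Sox2, beside a median of 6 over all 32851 windows. Windows with at least as many CpG make up 8.56% of all for Sox2 and 50.4% for Esrrb.

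The 10 factors that were on and had a window held a median of 20.5 CpG (5 to 32), the 5 low ones 6 (2 to 27) and the 8 that were off 6 (2 to 31). Single factors departed from these medians. Onecut1, at 0 counts, held 31 and the low factors Ppara and Foxa3 27 and 18, while Eomes and Nr1h4, both on, held 8 and 5. Prox1, at 0 counts, held 11 in the window used and 20 in a further one. The 6 factors that fell and had a window held 13 to 24 CpG in the window used (Foxa2, with 20, has further windows with 13 and 6), and the 2 that rose, Esrrb and Nr1h4, 6 and 5, although the window of Nr1h4 lies 26927 bases from the start of its main transcript. These are descriptions of a few windows, and methylation was not measured here.

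The windows were also searched on both strands for motif letters. The FOXA letters TGTTTAC, found in 3.17% of all windows, occurred in that of Cdx2, on the opposite strand at 40 to 34 bases before the start, and in that of Foxa1. The octamer ATGCAAAT of POU factors, found in 1.6% of windows, occurred at 147 to 140 bases before the start of Cdx2. The GATA letters AGATAA, found in 9.99% of windows, are in none of the 5 printed. The TATA box letters TATAAA, found in 12.4%, occurred in Cebpa at 30 to 25 bases before its start, where they overlap a match to the CDX letters TTTATNG, found in 9.81%.

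The intestinal factor Cdx2 showed the largest change of the 19, although the weakly expressed Tfap2c exceeded it in some alternatives, limma-voom among them (-4.38 against -4.34). It lies at chr5:147300805-147307270 (GRCm38, minus strand) and encodes a homeodomain protein that specifies the intestinal epithelium and, in the early embryo, trophectoderm. The wild-type libraries held 14.96, 12.1, 12.97 and 12.4 CPM, and the knockout libraries 0.572, 0.390, 0.639 and 1.16 CPM. The highest knockout library was thus an order of magnitude below the lowest wild-type library. The log2 fold change was -4.24 ± 0.24 (SE), an 18.9-fold difference (adjusted p = 1.423e-08). All counts came from its only listed transcript, Cdx2-201, whose start lies 21 bases from that of the printed window.

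Of the other tested genes within 500 kb only Flt3 fell as well. The ParaHox neighbour of Cdx2, Pdx1, the pancreatic master factor, had 0 counts in all 8 libraries. On the side of lower coordinates the nearest tested gene, Polr1d, a subunit of RNA polymerases I and III, lies 230.2 kb away and rose by 0.37 on the log2 scale. On the other side the kinase receptor gene Flt3 (93.22 kb) fell by 1.02 (adjusted p = 0.01095), and the noncoding gene D5Ertd605e (111.3 kb) rose from 0.302 to 5.47 CPM. Over the 64 genes at 5 CPM or more within 5 Mb of Cdx2 the median log2 fold change was 0.301, opposite in sign to that of Cdx2.

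**Figure D4:**
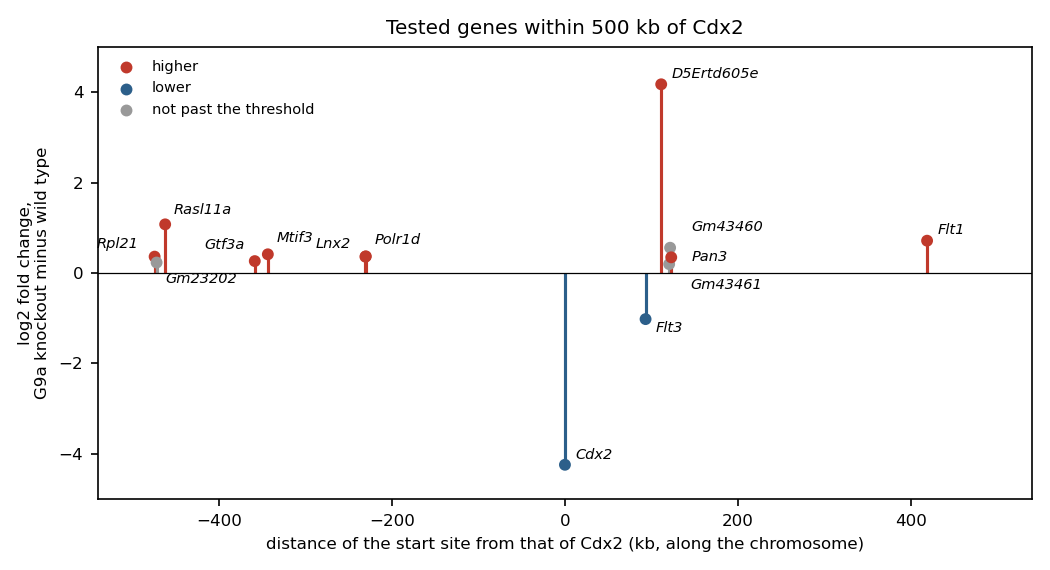
Log2 fold change (knockout minus wild type, y axis) of the tested genes whose start site lies within 500 kb of that of Cdx2, by distance in kb (x axis). Cdx2 at -4.24 and Flt3 at -1.02 point down, the other called genes point up, and the noncoding gene D5Ertd605e is the highest.

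The other gut and pancreas factors were off in both genotypes. Cdx1, which shares intestinal targets with Cdx2, Isx, a factor of vitamin A and carotenoid handling in the gut, and Pdx1 were at 0 counts throughout. Of 39 other intestinal genes, 16 could be tested, 4 rose and 4 fell, with a median log2 fold change of 0.0266. Of all genes tested 23.6% rose and 23.6% fell. Anpep, the gene of brush border aminopeptidase N, went from 32.8 ± 0.934 to 9.47 ± 1.19 CPM, and Epcam, an epithelial adhesion gene, from 4.71 ± 0.488 to 1.24 ± 0.423 CPM. Cdh17, a cadherin of intestine and a classical CDX2 target, went the other way, from 0.536 ± 0.161 to 1.80 ± 0.470 CPM, as did the mucin gene Muc13, from 0.0265 to 0.249 CPM. The posterior Hox gene Hoxa10, at 48.4 CPM in the wild type and 46.6 CPM in the knockout, did not pass. The counts depended on single libraries, with 1 higher and 2 lower without knockout replicate 3, and 2 and 2 without wild-type replicate 2 or wild-type replicate 3.

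Of the 8 factors of pluripotency and trophoblast, Esrrb rose, Klf5 and Tfap2c fell, and Sox2, Klf4 and Eomes did not pass the threshold. Esrrb, at chr12:86361117-86521628, is an orphan nuclear receptor that sustains naive pluripotency. It stood at 0.555, 0.151, 0.348 and 0.286 CPM in the wild type and at 1.77, 1.70, 1.26 and 1.43 CPM in the knockout. Every knockout library was above every wild-type library. In TPM its mean went from 0.151 to 0.791, far under that of Sox2 in both genotypes. The log2 fold change was 2.20 ± 0.35, or 4.60-fold (adjusted p = 0.0001576). Its neighbour 4732487G21Rik, 55.11 kb away, changed by 0.88 and was called higher, while Vash1, 317.6 kb away on the other side, did not pass. The median over 49 genes within 5 Mb was 0.197, and with that taken out Esrrb stood at 2.005 (adjusted p = 0.000387). Its start, which the printed window precedes, is that of transcript Esrrb-204, which held 96.3% of its counts in the knockout and 100% in the wild type.

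Klf5, a zinc finger factor of stem cells, trophectoderm and gut epithelium, had 37.0, 38.1, 31.5 and 33.2 CPM in the wild type and 24.1, 28.3, 22.5 and 24.1 CPM in the knockout. The groups did not overlap, and the change was a modest -0.50 ± 0.08 on the log2 scale (adjusted p = 0.0002449). The nearest tested neighbours, Dis3 (198.9 kb) and Klf12 (986 kb), changed by -0.29 and -0.53, and both were called lower. The median over 11 genes within 5 Mb of Klf5 was -0.00664. Tfap2c, which encodes the AP-2 gamma factor of trophoblast and germ cells, was low from the start. It had 19, 40, 36 and 36 counts in the wild-type libraries and 0, 3, 8 and 0 in the knockout. Its log2 fold change of -3.54 ± 0.81 (adjusted p = 0.00276) therefore rests on 11 counts in the knockout, and its size is imprecise. Bmp7, the nearest tested gene on one side at 390.7 kb, went from 5.40 to 0.110 CPM. On the other side Gm14303, 39.9 kb away, changed by 0.26 on the log2 scale and did not pass. The median over 36 genes within 5 Mb was -0.634, and with that taken out Tfap2c stood at -2.92 (adjusted p = 0.0104).

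Sox2 was measured at 51.5, 43.6, 45.4 and 47.3 CPM in the wild type and at 44.7, 44.3, 46.6 and 42.5 CPM in the knockout. The groups overlapped, and the log2 fold change was -0.08 with a 95% interval of -0.21 to 0.05. Eomes, the T-box factor of trophoblast stem cells and definitive endoderm, had 45.9, 48.4, 49.4 and 45.5 CPM in the wild type against 45.7, 46.1, 41.3 and 48.6 CPM, a difference of -0.06 (interval -0.18 to 0.07). For Klf4, a reprogramming factor also common in epithelia, the difference was 0.05 (interval -0.23 to 0.34) at 4.90 ± 0.736 CPM in the wild type. The intervals of Sox2 and Eomes leave room for a change of no more than 0.21 in size on the log2 scale, and that of Klf4 for up to 0.34. Sox2 lies inside the long noncoding gene Sox2ot, which held 6 to 23 counts per library.

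The pluripotency partners of Sox2 were at or near 0. Nanog had 0 counts in all 8 libraries, and Pou5f1, the gene of OCT4, had 11 counts in knockout replicate 4 and 0 in the other 7. Of 31 other genes of the pluripotency network 15 were at 0 in all libraries, Zfp42, Utf1, Fgf4 and Lin28b among them. In that list 6 genes could be tested, of which 3 fell and 3 did not pass, where 23.6% of all genes tested fell. Trim71, a repressor of differentiation transcripts, went from 55.5 ± 2.53 to 35.7 ± 3.16 CPM, and Klf2 from 6.28 ± 1.78 to 3.20 ± 0.112 CPM.

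Among 24 trophoblast genes 9 were at 0 throughout, including Elf5 and Hand1, which act with Eomes and Cdx2 in the placenta. Of the 8 tested, 2 rose and 2 fell, where 23.6% of all genes tested rose and 23.6% fell. Plet1, a surface protein of early trophoblast, went from 22.3 ± 1.49 to 39.5 ± 2.57 CPM, and Tead4, the factor that acts upstream of Cdx2 in trophectoderm, from 53.2 ± 4.01 to 40.3 ± 1.64 CPM. Leaving out knockout replicate 1, knockout replicate 2, wild-type replicate 2 or wild-type replicate 3 left 1 lower gene in place of 2.

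Within the GATA and SOX factors, Gata2 and Gata3 fell, Gata6 did not pass the threshold, and Gata4, Sox7 and Sox17 were low or off. Gata3, at chr2:9857078-9890034, a factor of trophoblast and T cells, had 4.01, 3.15, 2.39 and 3.22 CPM in the wild type and 0.975, 1.30, 1.72 and 1.67 CPM in the knockout. The ranges were separate, with a log2 fold change of -1.18 ± 0.22 (adjusted p = 0.000657). Its neighbour Taf3, a general transcription factor subunit 158.6 kb away, changed by -0.24. The 3 genes that overlap Gata3 in the annotation had 0 counts.

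Gata2, the partner of Gata3 in trophoblast and a regulator of blood and endothelium, had 53.5, 48.9, 44.8 and 47.7 CPM in the wild type and 38.5, 44.7, 42.9 and 42.1 CPM in the knockout. The groups met at 44.8 and 44.7 CPM, and the fall was 0.21 ± 0.07 on the log2 scale (adjusted p = 0.0165). The call was lost with library sizes alone (-0.13, adjusted p = 0.127), with upper quartile factors (-0.16, adjusted p = 0.0711), with the local chromosomal median taken out (-0.17, adjusted p = 0.0552) and without knockout replicate 1 (-0.17, adjusted p = 0.0602). Of 17 endothelial and blood stem cell markers, Erg, Fli1 and Emcn were at 0 in all libraries. In that list 8 could be tested, 2 rose and 1 fell, where 23.6% of all genes tested rose and 23.6% fell. The 17 summed to 47.8 to 57.8 CPM in the knockout and 54.2 to 61.6 CPM in the wild type. Runx1, which made up most of that sum, fell by 0.28 on the log2 scale, and with the local median taken out it stood at 0.77 (adjusted p = 1.99e-06), called higher.

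Gata6, a factor of primitive endoderm and liver bud, was at 14.3, 17.1, 15.9 and 15.1 CPM in the wild type and at 15.4, 16.7, 13.4 and 16.1 CPM in the knockout. Its groups overlapped, although knockout replicate 3 lay below every wild-type library and wild-type replicate 2 above every knockout library, with a log2 fold change of -0.02 (interval -0.21 to 0.17). Its usual partner in endoderm, Gata4, had 0 counts in the wild type and 4, 4, 8 and 0 counts in the knockout. Sox7 had 20, 4, 8 and 0 counts in the wild type and 10, 6, 7 and 0 in the knockout. Here 4 was the most common count above 0 among genes with a single long transcript, so such small values may each stand for very few sequenced fragments.

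In a list of 24 genes of extraembryonic and definitive endoderm 19 could be tested, 9 rose and 3 fell, with a median log2 fold change of 0.333, where 23.6% of all genes tested rose and 23.6% fell. Sparc, a matrix protein of parietal endoderm, went from 462 ± 35.5 to 827 ± 26.8 CPM, and Col4a1, of basement membrane, from 439 ± 47.9 to 779 ± 38.4 CPM. Dab2, an endocytic adaptor of primitive endoderm, went from 21.96 ± 0.945 to 36.3 ± 1.86 CPM. Afp, the fetal liver and yolk sac albumin relative, had the largest change of the list, 4.53 on the log2 scale. The 3 that fell were Thbd (-1.80), a thrombin receptor of parietal endoderm, and the transcription factor genes Hhex (-0.91) and Foxq1 (-0.78). With the local median taken out Dab2 stood at 0.40 in place of 0.72 and Thbd at -1.16, and both were still called.

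Among the 10 core liver factors 3 fell, Foxa1, Foxa2 and Cebpa, 3 did not pass the threshold, and 4 were at 0 counts in all libraries. Foxa1 and Foxa2 encode winged helix pioneer factors that open liver enhancers during development. Foxa1, at chr12:57540628-57546916, had 1.68, 1.196, 1.16 and 1.44 CPM in the wild type and 0.416, 0.101, 0.437 and 0.519 CPM in the knockout. All knockout libraries were below all wild-type libraries, at a log2 fold change of -1.89 ± 0.39 (adjusted p = 0.00136). The median over 30 genes within 5 Mb was 0.0108. The nearest tested neighbours, Mipol1 (316.5 kb) and Sec23a (1465 kb), changed by -0.34 and -0.31, and both were called lower.

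Foxa2, at chr2:148042877-148046969, had the highest mean TPM of the 10 core liver factors described here, with Tbx3 overlapping it. It was at 12.9, 11.6, 9.10 and 12.4 CPM in the wild type and at 5.93, 6.15, 6.71 and 6.43 CPM in the knockout, with no overlap. The log2 fold change was -0.87 ± 0.11 (adjusted p = 3.046e-05). Genes around it were lower too. The median over 46 genes within 5 Mb was -0.639, the nearest tested neighbours Xrn2 and Thbd changed by -0.68 and -1.80, and with the local median taken out Foxa2 stood at -0.23 (adjusted p = 0.121) and was no longer called.

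Cebpa, at chr7:35119293-35121928, encodes a leucine zipper factor of mature hepatocytes, fat cells and granulocytes that restrains proliferation. Wild-type libraries held 6.33, 5.46, 4.54 and 5.38 CPM and knockout libraries 1.95, 2.24, 2.98 and 1.91 CPM. The lowest wild-type value lay well above the highest knockout value, and the change was -1.26 ± 0.17 on the log2 scale, or 2.40-fold (adjusted p = 3.845e-05). Cebpg, its family member 62.72 kb away, changed by -0.12 and did not pass. Lrp3, 96.2 kb away on the other side, had 0 counts in all 4 knockout libraries against a mean of 1.78 CPM in the wild type. With the local median taken out Cebpa stood at -1.15 (adjusted p = 0.000103).

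The remaining liver factors with reads did not pass the threshold. Tbx3, a T-box repressor needed for the growth of hepatoblasts in the liver bud, had 28.0, 25.6, 22.9 and 24.7 CPM in the wild type and 24.4, 24.6, 23.1 and 25.0 CPM in the knockout, a difference of -0.06 (interval -0.21 to 0.09). The median over 103 genes within 5 Mb of it was 0.296, and with that taken out it stood at -0.36 (adjusted p = 0.00107) and was called lower. Its transcript Tbx3-203 held 17.9% of its counts in the wild type and 32.4% in the knockout. Shares of single transcripts varied widely between libraries, with 490, 190, 157 and 337 counts in the wild type and 603, 374, 404 and 800 in the knockout.

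Onecut2, a cut-homeodomain factor of early hepatoblasts, was on in both genotypes at 4.09 ± 0.964 and 4.14 ± 0.248 CPM (difference 0.02, interval -0.33 to 0.36), whereas its paralog Onecut1, the classical HNF6, was at 0. Foxa3, the FOXA member of adult liver metabolism, was low, with 0.440, 0.348, 0.130 and 0.111 CPM in the wild type and 0.247, 0.390, 0.420 and 0.491 CPM in the knockout. Its interval of -0.51 to 1.68 leaves a change in either direction possible.

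Of 40 other liver transcription factors 33 could be tested, of which 11 rose and 10 fell, with a median log2 fold change of 0.00338. Of all genes tested 23.6% rose and 23.6% fell. Pparg, the receptor of fat cells, went from 3.79 ± 0.690 to 0.599 ± 0.106 CPM, and Cebpb, the injury-responsive relative of Cebpa, fell by 1.13 on the log2 scale, or stood at -0.54 with the local median taken out. Hhex, the homeobox gene of the liver bud, went from 26.0 ± 2.29 to 13.8 ± 0.943 CPM. Nr3c1, the glucocorticoid receptor gene, rose from 72.7 ± 2.98 to 99.1 ± 3.11 CPM.

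The hepatocyte genes that HNF4A, FOXA, CEBPA and other liver factors are known to drive were mostly off or low in both genotypes. Of 40 such genes 20 were at 0 in all libraries and 7 could be tested, of which 1 rose and 1 fell. Among all genes tested 23.6% rose and 23.6% fell. Mttp, the lipoprotein assembly gene, went from 6.79 ± 0.371 to 21.04 ± 1.75 CPM, and Rbp4, the plasma retinol carrier, from 4.62 ± 0.876 to 2.81 ± 0.431 CPM.

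Of the 5 nuclear receptors of metabolism, Nr1h4 rose, Nr5a2 was at 0, and Ppara, Nr1i2 and Nr1i3 were low. Nr1h4, at chr10:89454234-89533585, encodes FXR, the receptor for bile acids. It had 3.002, 2.65, 2.59 and 2.27 CPM in the wild type and 5.28, 4.71, 5.25 and 4.57 CPM in the knockout. The groups were separate, and the log2 fold change was 0.91 ± 0.13, or 1.88-fold (adjusted p = 8.253e-05). Transcript Nr1h4-203 held 81.4% of its counts in the wild type and 88.0% in the knockout, with 143, 152, 121 and 138 counts against 313, 311, 259 and 323. The other transcript with reads, Nr1h4-201, varied from 3 to 93 counts between knockout libraries.

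FXR is best known for inducing Nr0b2 (SHP), a repressor of bile acid synthesis, and Nr0b2 had 0 counts in all 8 libraries. Of 16 bile acid and sterol genes under FXR and LRH-1, 7 were at 0 throughout and 5 could be tested. Of the 5, 1 rose and 1 fell, where 23.6% of all genes tested rose and 23.6% fell. Baat, which conjugates bile acids, rose from 0.158 ± 0.0621 to 0.488 ± 0.0344 CPM, and Osgin1 fell from 15.9 ± 1.66 to 9.30 ± 0.390 CPM. Abcb11, the bile salt export pump gene and a classical FXR target, was at 2.29 ± 0.227 CPM in the wild type and 1.86 ± 0.233 CPM in the knockout and did not pass.

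Nr1i2, the gene of the drug sensor PXR, had 0, 5, 0 and 0 counts in the wild type and 11, 25, 9 and 23 counts in the knockout. Every knockout library was above every wild-type library, but the gene was under the filter on low counts. Tested with all genes that had at least 1 read it was higher, with a log2 fold change of 3.56 (adjusted p = 0.0344) that rests on 5 wild-type counts. Nr1i3, the gene of its relative CAR, had 0.212, 0.393, 0.536 and 0.0159 CPM in the wild type and 0.156, 0.0289, 1.35 and 0.505 CPM in the knockout. Its libraries spread more than its groups differed, and without knockout replicate 3 its difference changed sign from 0.79 to -0.33. Nr1i3 overlaps Tomm40l, which lies on the opposite strand with 2144 to 3214 counts per library, and whether the counting used strand is not given in the sources used here, so its level is uncertain.

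Of 21 drug response genes under PXR and CAR, 9 were at 0 in all libraries, among them the classical targets Cyp3a11 and Cyp2b10. Of 9 tested, 5 rose and 1 fell, where 23.6% of all genes tested rose and 23.6% fell. Por, the electron donor of cytochromes P450, went from 192 ± 18.4 to 250.1 ± 6.51 CPM, and Gstm1, a glutathione transferase gene, from 47.6 ± 3.15 to 66.2 ± 2.89 CPM. Cyp2c55 went from 0.639 ± 0.160 to 1.52 ± 0.18 CPM. With the local median taken out Por stood at 0.0586 on the log2 scale (adjusted p = 0.477), against 0.38, and was no longer called. Without knockout replicate 3 there were 2 lower genes in place of 1.

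Ppara, the receptor that switches on fatty acid oxidation in fasting, had 8, 17, 16 and 14 counts in the wild type and 3, 12, 13 and 19 in the knockout. The groups overlapped, and the interval of the log2 difference ran from -1.53 to 0.97. Of 34 genes of fatty acid oxidation under PPARalpha 21 could be tested, of which 4 rose and 7 fell, with a median log2 fold change of -0.0625. With library sizes alone or upper quartile factors 7 rose and 6 fell. Of all genes tested 23.6% rose and 23.6% fell in the main fit. Hadha, a subunit of the mitochondrial trifunctional protein, went from 100.03 ± 5.10 to 165.6 ± 2.80 CPM. Cpt1a, the gate of mitochondrial fatty acid import, went from 44.3 ± 2.05 to 35.7 ± 0.732 CPM. With the local median taken out Hadha stood at 0.34 in place of 0.73 and Cpt1a at -0.21 in place of -0.31, both still called. Cyp4a10, Cyp4a14 and Pdk4, strongly induced targets in mouse liver, were at 0 counts in all 8 libraries.

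**Figure D5:**
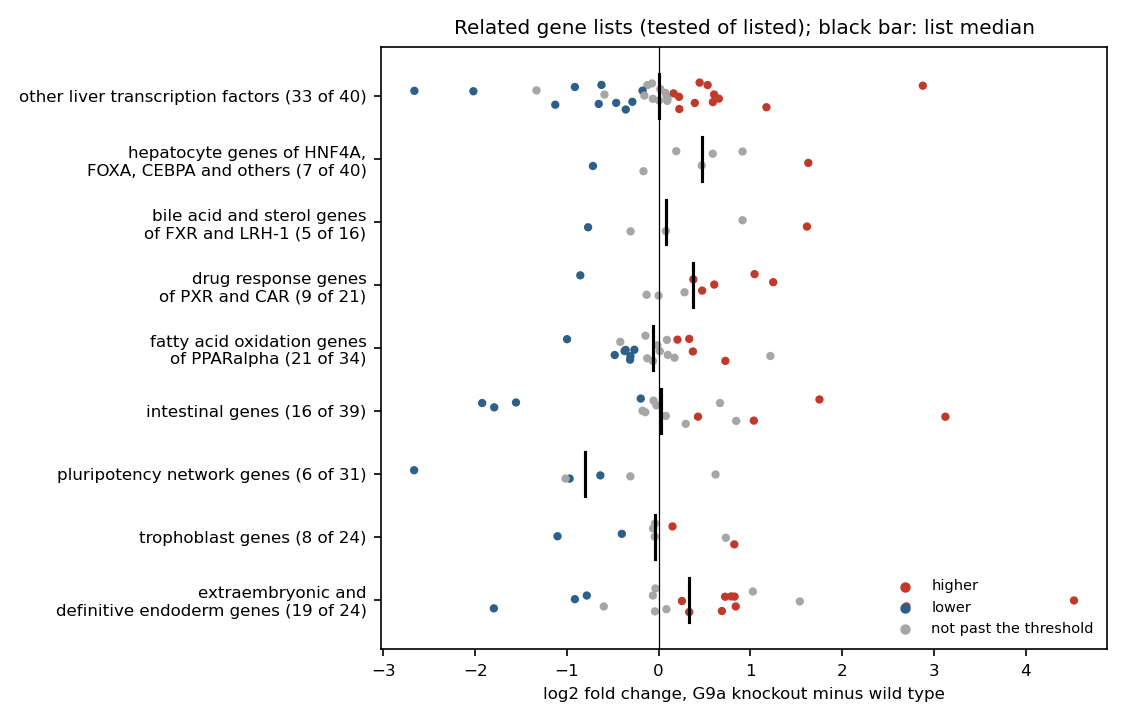
Log2 fold change (knockout minus wild type, x axis) of the tested genes of 9 lists related to the 33 factors, with 1 point per gene coloured by call and a black bar at each median. Vertical offsets within a list carry no meaning. The medians lie within 0.1 of 0 for 5 lists, and at -0.803 for the 6 tested pluripotency network genes, 0.333 for the 19 endoderm genes, 0.378 for the 9 drug response genes and 0.47 for the 7 hepatocyte genes.

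Markers of other cell types were read in the same fit, in which 23.6% of all genes tested rose and 23.6% fell. Of 12 fibroblast and stellate cell markers 8 could be tested, 6 rose and 2 did not pass (1 of them was lower without knockout replicate 3 or wild-type replicate 4). They summed to 433 to 466 CPM in the knockout and 109 to 120 CPM in the wild type, with Col3a1 the main part and Lum and Lrat at 0. Of 8 cholangiocyte markers 4 could be tested, 1 rose, Spp1, and 2 fell, Epcam and Sox9. The 8 had sums of 688 to 744 CPM against 371 to 432 CPM. Spp1 made up most of these sums, with means of 671 CPM in the knockout and 343 CPM in the wild type. Its log2 fold change of 0.97 stood at 0.64 with the local median taken out and was still called. Of 8 macrophage markers 4 could be tested, and 1 rose and 1 fell (2 rose without wild-type replicate 4). Their sums were 15.0 to 19.2 CPM against 18.02 to 20.8 CPM, with Adgre1, Clec4f and Itgam at 0. The part of these shifts in the factors' changes was not tested.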

How the data were processed

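Poly-A RNA of 8 Hepa 1-6 libraries was measured, 4 per genotype. The values, as deposited, were estimated counts of each transcript in whole numbers, not normalized, with genotype names above library names per the file headers. FastQC, Trimmomatic, HISAT2 and GRCm38.p6 are named in the submitters' processing notes, while the counting tool and its use of strand are not given. Of 115220 transcripts 99.23% matched GENCODE mouse release 21 and were summed to 47434 genes, although counts per gene had been assumed in the design. The 888 unmatched transcripts, with at most 0.17% of a library, were left out.

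Genotypes were compared with edgeR 4.0.16 (quasi-likelihood F test, two-sided, TMM, filterByExpr, genotype as the only term, Benjamini-Hochberg adjustment over 15840 genes). Differences on the log2 scale subtract the wild type from the knockout and carry standard errors. TPM used exon lengths of the same annotation. Promoter windows and CpG came from RefSeq. Alternatives were DESeq2 1.42.0, limma 3.58.1 (voom), 3 scalings, 2 filters, the replicate number as a block, leaving out each library, the local chromosomal median taken out, and other limits for on and off. The local median used genes at 5 CPM or more within 5 Mb.

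The members and the 14 gene lists were chosen with earlier results of these data known. All members are described, and of each list some of the up to 4 called genes with the lowest p and the up to 3 with the highest wild-type level. D5Ertd605e, Thbd and Foxq1 among the endoderm genes, and the non-member genes named at 0 were chosen after their values were seen. Code was tested on simulated data.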

Additional observations from a re-analysis of the deposited data

Results flagged for a closer look

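Of 44 groups of 4 libraries checked for a library far from the other 3, chance would mark about 1 in 20, and 2 were marked. Pou5f1 stood at 0.154 CPM (11 counts) in knockout replicate 4 and at 0 in the other 3 knockout libraries. Nr1i2 stood at 0.0757 CPM (5 counts) in wild-type replicate 2 and at 0 in the other 3 wild-type libraries. Where the other 3 libraries are at 0, any count above 0 is marked. The rate of 1 in 20 therefore does not apply to these 2.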

How the results depend on the processing

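Over the alternatives the 10 called factors kept their direction in all 167 values, and 162 of these stayed past the threshold. The 5 that did not were 4 of Gata2 and 1 of Foxa2, given in the report. With the filter of a mean of at least 1 CPM Esrrb, Foxa1 and Tfap2c were not tested, so they have no value there. Of the factors tested but not called, Tbx3 passed once, with the local chromosomal median taken out. Leaving out single libraries gave 2 to 3 factors called higher and 7 to 8 called lower. With all genes that had at least 1 read, 3 factors were called higher. Same-numbered replicates did not deviate together (correlations -0.284, 0.078, 0.384 and 0.13 over 9977 genes), and not every library correlated best with its own number. With the replicate block 2 factors rose and 8 fell, as without it. Depth limits the low factors most, and the intervals of Tfap2c, Foxa3, Ppara and Nr1i3 were wider than 2 log2 units.

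Signs turned only among factors not past the threshold in either setting. With library sizes alone Sox2 stood at 0.0041, Eomes at 0.023, Gata6 at 0.0616 and Tbx3 at 0.0202. With the local median taken out Sox2 stood at 0.0462, Eomes at 0.0566 and Gata6 at 0.0862. Gata6 stood at 0.00304 with the filter of a mean of at least 1 CPM, and with upper quartile factors Gata6 stood at 0.039 and Eomes at 0.000807. Leaving out single libraries gave ranges of -0.0615 to 0.0479 for Gata6, -0.0932 to 0.181 for Onecut2, -0.568 to 0.0574 for Ppara, -0.328 to 1.27 for Nr1i3 and -0.0245 to 0.136 for Klf4. The causes were not tested.

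With the filter of a mean of at least 1 CPM, which tests fewer genes, 1 factor was higher (Nr1h4), 0 bile acid genes, 1 endothelial and 0 macrophage markers were higher, and 1 trophoblast gene was lower. With all genes that had at least 1 read, 3 bile acid genes and 2 cholangiocyte markers were higher. With library sizes alone, and likewise with upper quartile factors, 2 bile acid genes, 7 fatty acid oxidation genes and 2 macrophage markers were higher. With limma-voom 1 fibroblast marker was lower. With the local median taken out, 2 bile acid genes, 0 endothelial and 1 fibroblast marker were lower, and 2 macrophage markers were higher. When at most 12 counts counted as off, a limit chosen after seeing the data, 7 factors in place of 11 were low in the knockout.

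Leaving out single libraries gave 1 to 2 lower drug response genes, 1 to 4 higher and 2 to 4 lower intestinal genes, 1 to 2 lower trophoblast genes, 0 to 1 lower fibroblast markers and 1 to 2 higher macrophage markers.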
